A study of Mus musculus with 4 samples.

Results

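RNase P RNA (Rpph1), RNase MRP RNA (Rmrp), 7SK RNA (Rn7sk), telomerase RNA (Terc), a vault RNA (Vaultrc5) and the Y RNAs Rny1 and Rny3 are short, folded non-coding RNAs that work inside protein complexes. These 7 symbols were looked up among the 24169 genes of the deposited table, and 6 of them had a row, of which 3 passed the filter on low values. Terc had none and was not analysed here. Rmrp was selected on its FPKM in these same 4 libraries, MBP against untreated, so its difference between groups is described without a test. The other members were chosen as structured RNAs that rRNA-depleted libraries can show.

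RNA came from C8-D1A, an established mouse astrocyte line. In 2 libraries the cells had been exposed to 1 mM MBP for 24 h, and the 2 reference libraries came from untreated cells. The labels spell the agent only as MBP. The series title concerns DBP, dibutyl phthalate, whose main metabolite is monobutyl phthalate. All 4 libraries were of total RNA depleted of ribosomal RNA. Their depths, recovered from the FPKM scale and not given by the labels, were 23571000 to 25907000 reads each. It is not stated whether the libraries of a group were separate cultures, so p-values speak only of how much these libraries vary, and that variation may be technical. In bulk RNA, fewer cells with a transcript and less of it per cell cannot be told apart. Of 11 astrocyte markers, 4 reached 1 FPKM in any library, led by Vim and Nes, which other cell types also make. Slc1a3 had 0 and 1 reads in the MBP libraries and 0 in both untreated ones, and Aqp4 had 2 and 7 reads in MBP and 4 and 6 in untreated cells. Sox10, of the oligodendrocyte lineage, had 89.6 and 87.8 FPKM in MBP and 99.97 and 96.14 FPKM in untreated cells. The summed level of the 4 oligodendrocyte-lineage markers with a row was 104.6 to 104.9 FPKM in MBP and 113.1 to 118.8 FPKM in untreated cells, and its part in the results was not tested.

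RNase P cuts the leader off precursor tRNAs, and RNase MRP cuts precursor ribosomal RNA. Both are ribozyme-type enzymes that share most of their protein subunits, and their RNAs are related in fold. 7SK RNA holds the elongation kinase P-TEFb in an inactive complex, telomerase RNA is the template for telomere repeats, vault RNA rides on the large vault particle, and Y RNAs bind the Ro60 protein. All but Terc are made by RNA polymerase III. For Rpph1, Rmrp, Rn7sk and the Y RNAs the signals for this lie upstream of the gene, where an octamer, a proximal element and a TATA box are the known parts. Vault RNA genes carry them inside.

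The RNAs themselves are printed first for the RNase pair, from GENCODE M21 transcripts (GRCm38), 5′ to 3′ in DNA letters. Rmrp (chr4:43492788-43493058, minus strand, 271 nt, 64.2% GC) and Rpph1 (chr14:50807449-50807767, minus strand, 319 nt, 67.1% GC) are shown because they hold the levels and differences below. Rpph1 is shown from base 1 to base 300. Capitals mark the longest run of bases that they share.
Rmrp: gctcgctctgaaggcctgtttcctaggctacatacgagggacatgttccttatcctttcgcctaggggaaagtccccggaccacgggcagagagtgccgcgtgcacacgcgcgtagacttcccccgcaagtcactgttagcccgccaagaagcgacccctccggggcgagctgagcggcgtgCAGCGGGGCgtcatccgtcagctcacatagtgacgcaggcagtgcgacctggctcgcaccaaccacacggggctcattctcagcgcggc
Rpph1: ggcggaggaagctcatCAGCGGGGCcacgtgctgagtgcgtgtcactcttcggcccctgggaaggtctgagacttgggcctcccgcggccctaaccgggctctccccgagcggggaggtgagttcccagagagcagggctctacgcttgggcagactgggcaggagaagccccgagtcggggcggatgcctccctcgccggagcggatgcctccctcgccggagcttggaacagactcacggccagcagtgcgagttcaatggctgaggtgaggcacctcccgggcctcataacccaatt
The shared run is 9 bases long and starts at base 183 of Rmrp and base 17 of Rpph1. A global alignment put 176 bases in identical columns, 51.8% of 340 columns. Rmrp against Rn7sk gave 50.8% and Rpph1 against Rn7sk 53.1% in the same alignment, so letter identity did not set the RNase pair apart from 7SK. Rpph1 also holds the 21-base unit ggatgcctccctcgccggagc as 2 copies in tandem, from base 184 to base 225.

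Rn7sk (chr9:78175303-78175633, minus strand, 331 nt, 58.0% GC) is shown from base 1 to base 300 with every GATC in capitals. These letters occur in the stem by which 7SK is known to bind the P-TEFb inhibitor Hexim1, but not every marked copy need lie in that stem.
Rn7sk: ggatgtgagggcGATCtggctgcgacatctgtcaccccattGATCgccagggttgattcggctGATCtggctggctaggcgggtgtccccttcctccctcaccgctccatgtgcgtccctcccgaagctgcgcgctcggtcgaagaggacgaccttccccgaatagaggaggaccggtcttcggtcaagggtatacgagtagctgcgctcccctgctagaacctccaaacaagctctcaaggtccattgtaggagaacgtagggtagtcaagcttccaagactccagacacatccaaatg
GATC starts at bases 13, 42 and 64 of Rn7sk. Among 396 single-exon rows of 300 to 400 nt, 11.9% hold 3 or more copies and 74.0% at least 1.

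The Y RNAs are shown because they were almost unseen despite intact gene records. Rny1 (chr6:47788069-47788180, minus strand, 112 nt) and Rny3 (chr6:47781624-47781725, plus strand, 102 nt) both end in 4 T, the known stop signal of RNA polymerase III. Capitals mark their longest shared run, of 12 bases.
Rny1: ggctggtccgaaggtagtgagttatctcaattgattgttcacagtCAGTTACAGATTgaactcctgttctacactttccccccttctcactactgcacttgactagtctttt
Rny3: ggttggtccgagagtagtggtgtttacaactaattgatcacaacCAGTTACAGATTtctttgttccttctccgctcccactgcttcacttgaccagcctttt
They were identical in 72.3% of 112 alignment columns.

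Rpph1 was the highest row of the whole table by FPKM in every library. It stood at 9742 and 8597 FPKM in the MBP libraries, against 10514 and 11458 FPKM in the untreated ones, with both MBP values below both untreated values. FPKM, fragments per kilobase of gene scaled to the size of the library, takes gene length into account, but not how well short RNAs are kept in a library, so levels of different genes are compared here on the FPKM scale only. These values came from 74440 and 71049 recovered reads in MBP and 81668 and 86158 in untreated cells, which is 0.274% to 0.366% of the recovered depth of a library. The next highest row by its mean was mt-Co1, a respiratory chain subunit encoded in mitochondrial DNA, at 7764 FPKM over the 4 libraries, against 10078 FPKM for Rpph1.

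Rpph1 averaged 9169 ± 809.5 FPKM in MBP and 10986 ± 667.5 FPKM in untreated cells (SD, n = 2 each). The log2 fold change on log2(FPKM + 1) was -0.26, with a 95% interval of -0.74 to 0.22, and it did not pass the test (limma adjusted p = 0.644). Limma called 0 of 12403 genes, percent called 0, while 1201 genes (9.68%) had an unadjusted p under 0.05. With recovered reads in limma-voom, 16 genes passed, and Rpph1 was not among them.

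Rmrp, the member picked for its values, stood at 686.0 and 763.7 FPKM in the MBP libraries, against 942.5 and 1051 FPKM in the untreated ones. The groups did not overlap. The gap between the lower untreated and the higher MBP library was wider than the gap between the libraries of either group. The reads behind these values were 4453 and 5362 in MBP and 6219 and 6715 in untreated cells. The half-widths of their exact Poisson 95% intervals were 2.40% to 2.95% of the value, counting error only. Group means were 724.8 ± 55.0 FPKM in MBP and 996.8 ± 76.9 FPKM in untreated cells (SD, n = 2 each), a fold of 0.727 and a log2 fold change of -0.46. With 1 library left out it ranged from -0.54 to -0.38, and its sign could not turn there because the groups did not overlap.

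Both RNase RNAs thus had groups that did not overlap, with MBP lower, as had 23.5% of all tested genes, so for Rpph1 this is a common pattern in the table. The background was 21.3% with MBP higher and 44.8% in either direction. The level of Rpph1 over that of Rmrp was 14.2 and 11.3 in the MBP libraries and 11.2 and 10.9 in the untreated ones. The first MBP library had the widest ratio, and the other 3 lay close together.

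Rn7sk stood at 528.6 and 316.5 FPKM in the MBP libraries, against 461.1 and 361.4 FPKM in the untreated ones. The 2 MBP libraries were the highest and the lowest of the 4, and both untreated values lay between them. The higher MBP library had 1.67 times the level of the lower one, and the higher untreated library 1.28 times. These values came from 4191 and 2714 reads in MBP and 3716 and 2820 reads in untreated cells. Their Poisson half-widths, which cover counting error only, were 3.04% to 3.78%. The mean was 422.5 ± 149.97 FPKM in MBP and 411.3 ± 70.4 FPKM in untreated cells (SD, n = 2 each). The log2 fold change was 0.0028, and its 95% interval of -0.68 to 0.68 leaves room for changes of more than 1.5-fold either way (limma adjusted p = 0.997). Without the first MBP library it was -0.37 and without the second 0.37. Without the first untreated library it was 0.18 and without the second -0.17, so single libraries set its sign.

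**Figure D1:**
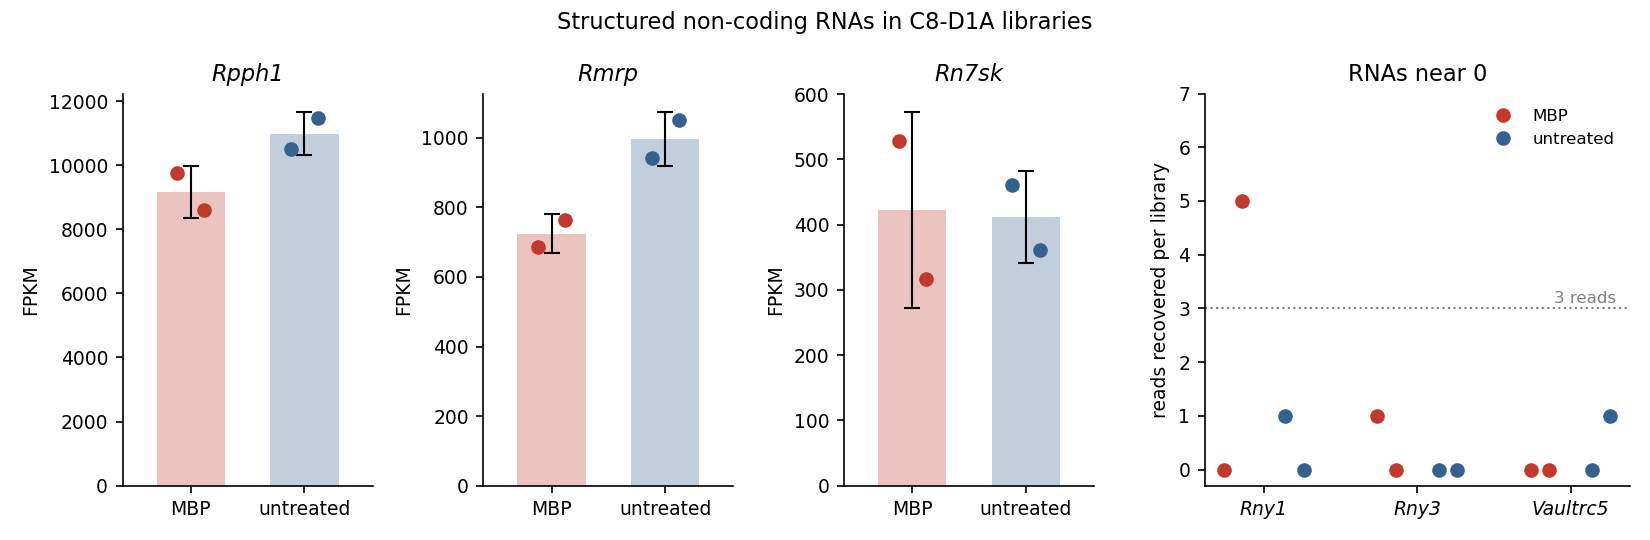
FPKM of Rpph1, Rmrp and Rn7sk (bars are means, error bars SD, n = 2 libraries each, points are libraries) and reads per library of Rny1, Rny3 and Vaultrc5, for MBP (red) and untreated (blue). The dotted line marks the floor of 3 reads. Rpph1 and Rmrp values were lower in both MBP libraries, Rn7sk values of MBP lay on either side of the untreated ones, and 5 reads was the highest count among the RNAs near 0.

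The order of levels was Rpph1, Rmrp, Rn7sk in every library, ranks 1, 9 to 17 and 26 to 56 among all rows. The lowest Rmrp value, 686.0 FPKM in MBP, exceeded the highest Rn7sk value, 528.6 FPKM in the same library. The remaining 3 members were near 0. Rny1, a Y RNA, had 0 and 5 reads in MBP and 1 and 0 reads in untreated cells. Rny3, the second Y RNA, had 1 and 0 reads in MBP and 0 in both untreated libraries. Vaultrc5 (chromosome 18, 36801866 to 36802008, plus strand, 143 nt), the vault RNA, had 0 reads in both MBP libraries and 0 and 1 reads in untreated cells. None of the 3 can be compared between groups at this depth. Taking 3 reads as the limit that a count of 0 allows, the libraries at 0 allow up to 1.12 and 1.14 FPKM for Rny1, 1.14 to 1.25 FPKM for Rny3 and 0.810 to 0.876 FPKM for Vaultrc5. The 3 abundant RNAs are 271 to 331 nt long and the 3 near 0 are 102 to 143 nt. Of 2101 rows up to 400 nt, the 3 abundant members included, 843 passed the filter of 1 FPKM in 2 or more libraries. For a row as short as Rny3, 3 reads are 1.14 to 1.25 FPKM, so passing can rest on few reads. Gm24582, a predicted small nuclear RNA gene of 103 nt picked as an example, had 5.27 to 8.62 FPKM over the libraries. Whether fragment or insert size had a part in the values near 0 was not tested.

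Other ribozyme and misc_RNA rows were lower than the 3 abundant members. The 3 further ribozyme rows were the predicted genes Gm22714, Gm25694 and Gm25043. Gm22714 had 2.14 and 2.47 FPKM in MBP and 1.05 and 0.544 FPKM in untreated cells, and Gm25043 was listed at 0 throughout. Gm22714 is shorter than Rny1, for which 1.72 FPKM in the second MBP library was 5 reads. Its values thus rest on few reads, and its groups are not compared here. Of 128 further misc_RNA rows, 43 had a mean of at least 1 FPKM, and the highest, Gm24629, had a mean of 20.9 FPKM. The table held no further row whose symbol starts with Rprl, Rn7s, Rny, Vaultrc, Rmrp, Rpph or Terc.

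The genes around the members were looked at because short RNAs can share reads with them. In the deposited coordinates Ccdc107, a coiled-coil protein gene on the opposite strand, overlaps Rmrp by 159 bases. It had 6.77 and 4.89 FPKM in MBP and 5.76 and 5.73 FPKM in untreated cells, with a log2 fold change of 0.0044 (limma adjusted p = 0.994) and groups that overlapped. GENCODE M21 also has a lincRNA record named Rmrp (chr4:43492783-43493063) over the ribozyme record, and Ccnb1ip1 (chr14:50789248-50807732) over part of Rpph1 on the same strand; neither was analysed here. Whether the counting used strand is not given in the sources used here.

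Parp2, a poly(ADP-ribose) polymerase of DNA repair, begins 178 bases from Rpph1 in the deposited coordinates and runs the other way. It had 10.997 and 11.8 FPKM in MBP and 12.3 and 12.2 FPKM in untreated cells. Its groups did not overlap, with a log2 fold change of -0.10 (95% interval -0.25 to 0.06, limma adjusted p = 0.607). Ick, a kinase gene 3195 bases from Rn7sk, had a log2 fold change of 0.0080 (adjusted p = 0.979). Pdia4, an endoplasmic reticulum chaperone gene 7960 bases from Rny1, had 81.1 and 83.2 FPKM in MBP and 102.4 and 105.5 FPKM in untreated cells, with no overlap and a log2 fold change of -0.34 (limma adjusted p = 0.457). Zmat2, 2205 bases from Vaultrc5, stood at 0.06 (adjusted p = 0.711) and Arhgef39, 3083 bases from Rmrp, at -0.03 (adjusted p = 0.916). The other neighbours within 10 kb, Sit1, Gsta4, Gm23424 and Rpl31-ps7, lay under the filter.

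The bases upstream of the 3 abundant RNAs are shown because each RNA stands head to head with another gene. RefSeq's promoter table (GRCm38.p6) had no entry for any of the 7 members. The stretches were therefore taken from the entries of the facing genes, Ccdc107, Parp2 and C920006O11Rik, cut at those genes' RefSeq starts, and turned to the minus strand so that they read toward the RNA. Capitals mark the octamer ATGCAAAT, or its first 7 bases where the eighth differs, on either strand.
Rmrp upstream: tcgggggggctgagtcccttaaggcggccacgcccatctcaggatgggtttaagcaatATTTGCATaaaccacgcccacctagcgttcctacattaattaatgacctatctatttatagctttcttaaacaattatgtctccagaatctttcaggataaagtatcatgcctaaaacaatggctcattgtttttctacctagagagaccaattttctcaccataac
Rpph1 upstream: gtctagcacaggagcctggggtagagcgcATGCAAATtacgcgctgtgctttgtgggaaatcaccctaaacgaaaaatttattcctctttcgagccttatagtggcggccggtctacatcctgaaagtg
Rn7sk upstream: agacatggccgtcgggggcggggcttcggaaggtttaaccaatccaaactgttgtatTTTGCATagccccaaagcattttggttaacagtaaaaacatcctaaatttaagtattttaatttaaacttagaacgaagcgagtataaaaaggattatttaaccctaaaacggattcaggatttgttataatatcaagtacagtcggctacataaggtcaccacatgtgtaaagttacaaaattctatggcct
The Rmrp stretch is chr4:43493115-43493339 (225 bases, short of the RNA by 56), the Rpph1 stretch chr14:50807768-50807896 (129 bases, the whole gap), and the Rn7sk stretch chr9:78175664-78175913 (250 bases, short of the RNA by 30). ATGCAAAT lies 216 to 223 bases before Rmrp and 93 to 100 bases before Rpph1. Rn7sk has only ATGCAAA, 217 to 223 bases before its start. Over 32851 promoter windows cut to the same stretch, ATGCAAAT on either strand was in 1.51% (as for Rmrp) and 0.925% (as for Rpph1), and ATGCAAA, which it contains, in 4.12% (as for Rn7sk). TATAA on either strand lies 29 to 33 bases before Rpph1, 164 to 168 before Rmrp, and 93 to 97, 94 to 98 and 136 to 140 before Rn7sk. The 56 bases next to Rmrp and the 30 next to Rn7sk were not searched. A TATA element as near to these RNAs as that of Rpph1 would therefore have been missed. It was in 13.0%, 20.7% and 22.8% of promoter windows for the stretches of Rpph1, Rmrp and Rn7sk. The motifs were chosen with the stretches in view, and a match describes letters, not use of a site.

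**Figure D2:**
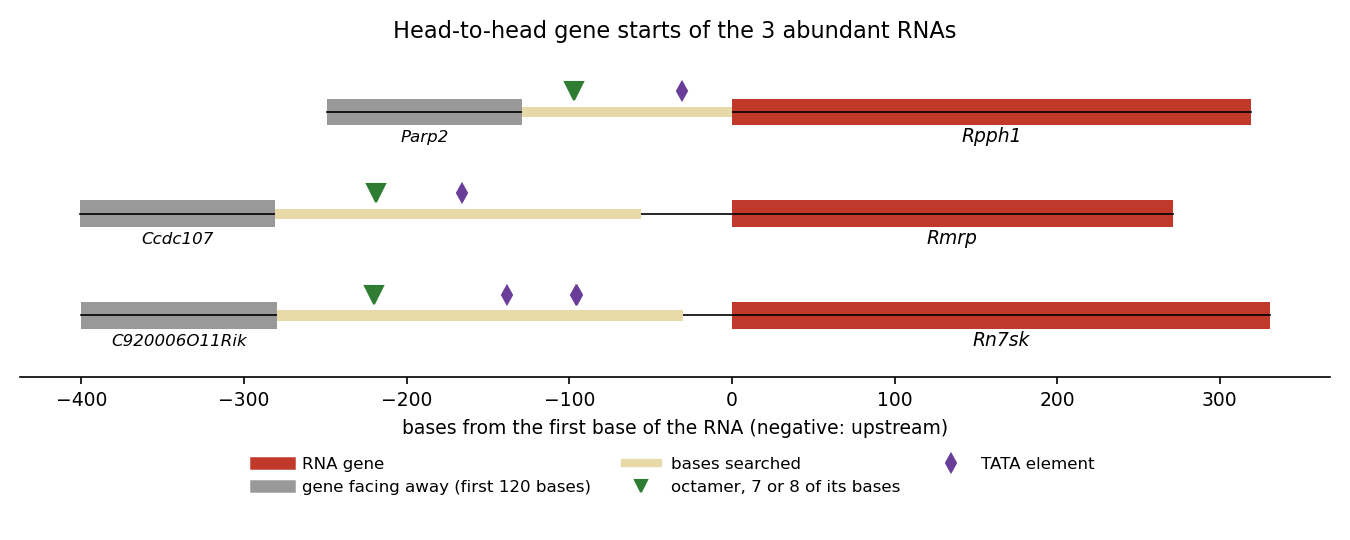
Map to scale, in bases from the first base of each RNA, of the 3 abundant RNAs (red), the first 120 bases of the facing genes from their RefSeq starts (grey), the bases searched (yellow) and matches to the octamer (triangles, 7 or 8 of its bases) and TATAA (diamonds). The octamer match lies 216 to 223 bases upstream for Rmrp, 217 to 223 for Rn7sk and 93 to 100 for Rpph1.

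GC content moved with fold change in this table, and the 3 abundant members belong to the eighth of genes with the highest GC content (56.9% and above, 1549 genes). The median log2 fold change was -0.09 in that eighth and 0.08 in the lowest. Across 12389 genes, which share the same 4 libraries, GC content and fold change had a Spearman's rho of -0.442. In the top eighth 47.6% of genes had non-overlapping groups with MBP lower. After a loess correction for GC content and length, log2 fold changes were -0.32 for Rmrp, -0.11 for Rpph1 and 0.10 for Rn7sk; the part of GC content in these differences was not tested further. Short rows did not move together: of 843 tested rows up to 400 nt, 405 were lower and 438 higher in MBP, with a median of 0.02, and 15.1% had non-overlapping groups with MBP lower. Their median SD between libraries of a group was 0.335 on the log2 scale, against 0.110 for Rmrp, 0.109 for Rpph1 and 0.409 for Rn7sk. These SDs were not matched for level or reads, and Rmrp was picked for its values, so they do not rank steadiness.

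**Figure D3:**
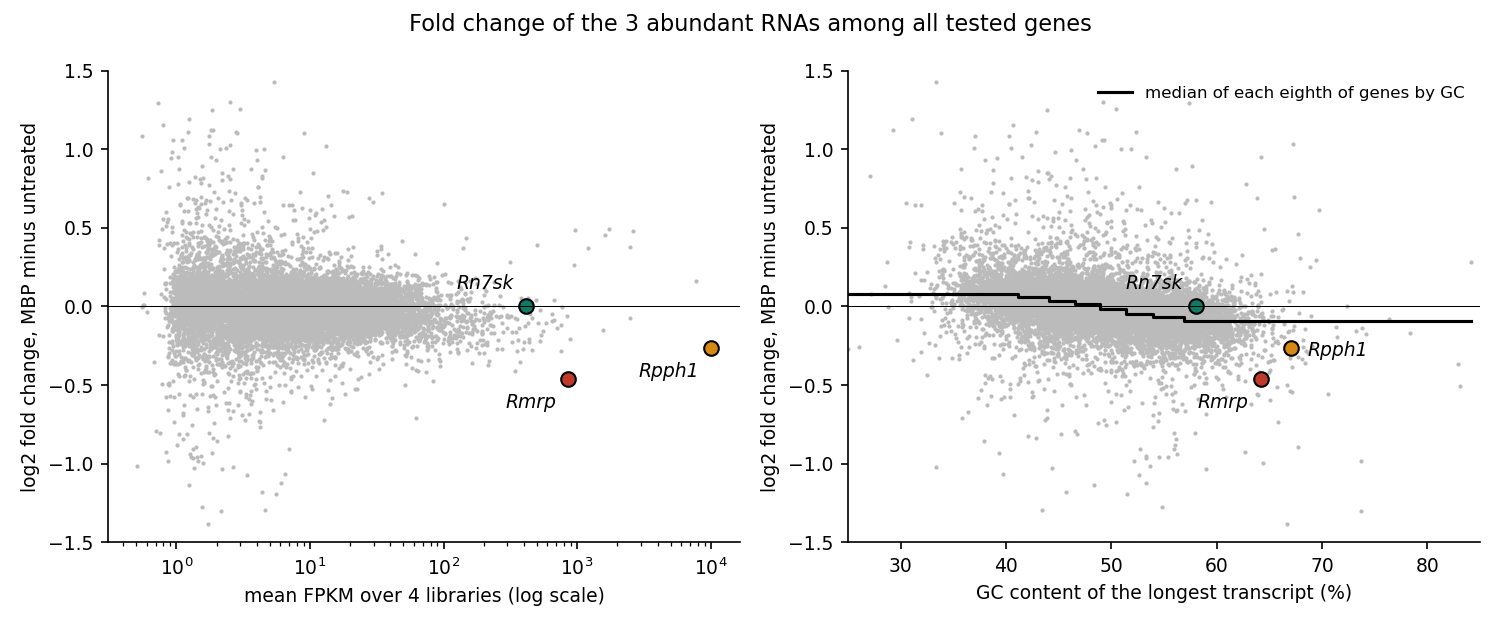
Log2 fold change, MBP minus untreated, of 12403 tested genes (grey; 4 lie outside the fold change axis and 3 outside the GC axis) against mean FPKM on a log scale (left) and GC content in % (right), with the medians of eighths of genes by GC content (black line). Rmrp at -0.46 and Rpph1 at -0.26 lie below the median of their eighth, -0.09, and Rn7sk lies at 0.0028.

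The genes whose centred log2 profile over the 4 libraries lay nearest to that of Rmrp were Hist1h1c, a linker histone, Rabac1, a Rab-binding membrane protein, Metrn, a secreted neurotrophic protein, Pdia6, an endoplasmic reticulum chaperone, and Mad2l1bp, a mitotic checkpoint regulator. Root mean square distances were 0.0283 for Hist1h1c, 0.0304 for Rabac1, 0.0312 for Metrn, 0.0353 for Pdia6 and 0.0402 for Mad2l1bp. With 4 libraries such a ranking describes likeness only. Hist1h1c had 60.4 and 65.2 FPKM in MBP, against 80.0 and 88.1 FPKM in untreated cells. Pdia6 had 47.3 and 52.3 FPKM in MBP, against 62.0 and 69.1 FPKM in untreated cells. Their being lower in both MBP libraries follows from how they were chosen. Their GC contents ran from 48.9% for Pdia6 to 59.9% for Rabac1.

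The protein partners of these RNAs and the machinery that makes them were then described in 8 lists with 76 entries, 75 of which had a row and 73 of which were tested. In limma's test 0 genes passed in either direction. Over the lists 36 fold changes were negative and 37 positive, with a median of 0.0015, against -0.0048 over all genes. Groups did not overlap in 16 of the 73 with MBP lower and in 15 with MBP higher, near the 23.5% and 21.3% of all tested genes.

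Of the protein subunits of RNase P and RNase MRP, 8 of 10 tested had a negative log2 fold change, with a median of -0.07, while over all tested genes 6405 of 12403 were negative. Rpp38, an RNA-binding subunit, had 7.13 and 7.30 FPKM in MBP, against 8.986 and 8.998 FPKM in untreated cells (log2 fold change -0.28, limma adjusted p = 0.457). Rpp21, a subunit particular to RNase P, had 4.87 and 5.64 FPKM in MBP, against 6.27 and 7.45 FPKM in untreated cells (-0.33, adjusted p = 0.503). For both the groups did not overlap, as for Rpp25l at -0.15, while Pop7 at -0.26 had groups that overlapped. These 3 of 10 stand beside the 23.5% of all tested genes that did not overlap with MBP lower. The scaffold Pop1 stood at -0.05 and Pop4 at 0.04. Mitochondria use a protein-only RNase P in mammals: its nuclease Prorp (named 1110008L16Rik in the table) had 3.43 and 2.99 FPKM in MBP and 2.69 and 2.92 FPKM in untreated cells (0.15, adjusted p = 0.611). Its partners Trmt10c and Hsd17b10 stood at 0.0015 and -0.09. Elac1 and Elac2, which cut the other end of tRNAs, stood at -0.07 and 0.04.

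Among the 7SK complex, Hexim1, the inhibitor of P-TEFb, had 17.3 and 17.6 FPKM in MBP, against 20.2 and 19.5 FPKM in untreated cells (log2 fold change -0.18, limma adjusted p = 0.503). Mepce, which caps 7SK, stood at -0.13, also with no overlap. Ccnt1 and Ccnt2, the cyclins of P-TEFb, stood at 0.12 and 0.16, with both MBP libraries above both untreated ones. Larp7, which holds the end of 7SK, stood at -0.05 and the kinase Cdk9 at 0.03. The list's median was 0.03, and 0 of 7 passed.

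Of the telomerase proteins, Tert, the catalytic subunit, lay under the filter, at 0 and 0.00674 FPKM in MBP and 0 and 0.0370 FPKM in untreated cells. Transcripts of the RNA-binding core proteins were present, while the proteins were not measured. Dkc1 had 23.4 and 22.99 FPKM in MBP and 22.6 and 20.3 FPKM in untreated cells, a log2 fold change of 0.11 (limma adjusted p = 0.602). Nop10 stood at -0.19, Nhp2 at -0.10 and Parn, which trims Terc, at 0.12. Of the vault proteins, Mvp, which builds the shell, had 3.86 and 4.18 FPKM in MBP and 4.09 and 4.59 FPKM in untreated cells (-0.09, adjusted p = 0.720). Parp4 stood at 0.03, and Tep1, shared by vaults and telomerase, had at most 0.125 FPKM in any library. The mRNA of the Y RNA protein Ro60 (named Trove2 in the table) had 19.4 and 21.3 FPKM in MBP and 20.9 and 19.4 FPKM in untreated cells (0.01). The Y RNAs that Ro60 binds were nearly absent from the reads. Ssb, the La protein that binds the U-rich ends of RNA polymerase III transcripts, stood at 0.14, Puf60 at -0.17, Ptbp1 at -0.12 and Ncl at 0.14.

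RNA polymerase III itself had 13 tested subunits, with a median log2 fold change of -0.0097, which turned to 0.01 in TPM. Polr3gl, which takes the place of Polr3g in the form of the enzyme found in most adult cells, had 5.20 and 5.99 FPKM in MBP, against 4.32 and 3.75 FPKM in untreated cells (log2 fold change 0.39, 95% interval 0.14 to 0.64, limma adjusted p = 0.496). Polr3g, at 0.07, had 3.17 and 3.11 FPKM in MBP and 3.18 and 2.71 FPKM in untreated cells. Crcp stood at -0.18, Polr3k at 0.15 and Polr3c at 0.13. Of 19 transcription factors of this polymerase, 13 had a positive fold change, with a median of 0.03, while over all tested genes 5998 of 12403 were positive. Groups did not overlap in 4 of the 19 with MBP lower and in 4 with MBP higher, near the 23.5% and 21.3% of all tested genes. Gtf3c6 stood at 0.18 (adjusted p = 0.503), and Maf1, the repressor of the polymerase, at -0.13 with no overlap. Among factors for upstream promoters such as those of Rmrp and Rpph1, Snapc3 stood at 0.15, Snapc2 at -0.13, Brf2 at -0.19, and Pou2f1, which binds the octamer, at 0.09 (95% interval -0.14 to 0.32).

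**Figure D4:**
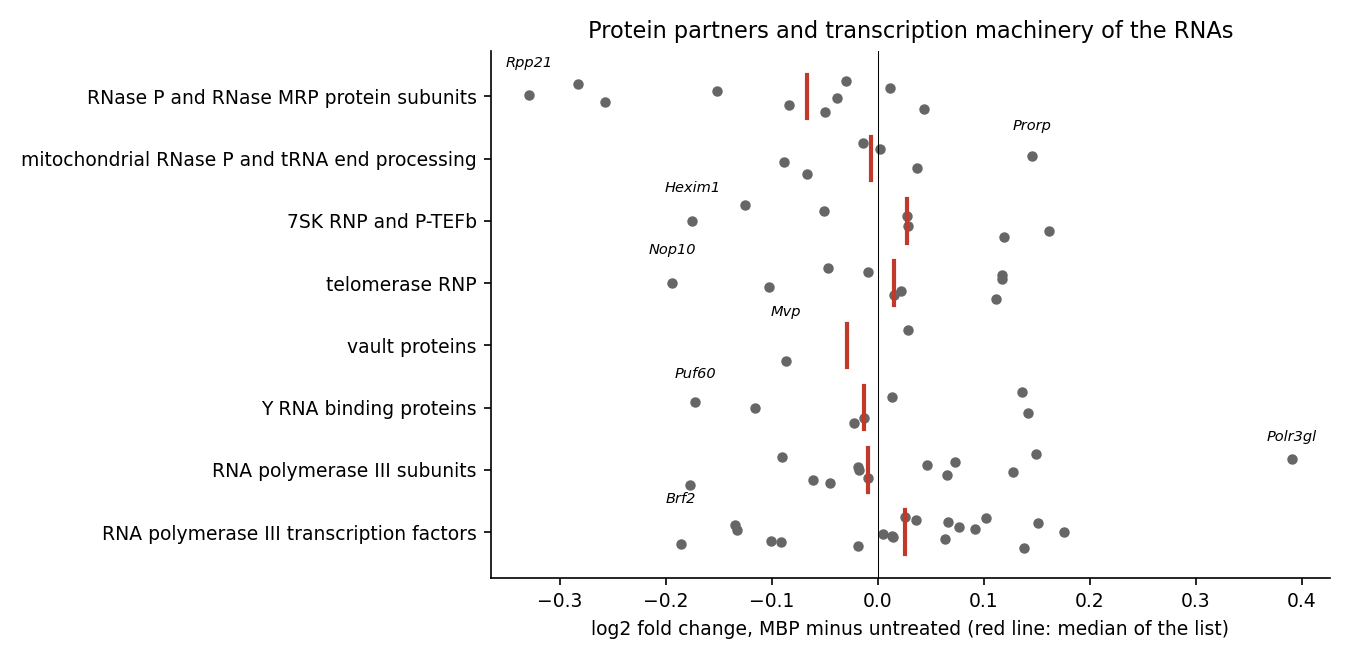
Log2 fold change, MBP minus untreated, of each tested gene (points) in 8 lists of protein partners and RNA polymerase III machinery, with the list medians (red lines) and the gene farthest from 0 named in each list. Medians lie between -0.07 for RNase P and RNase MRP subunits and 0.03 for the 7SK list, and Polr3gl at 0.39 and Rpp21 at -0.33 lie farthest from 0.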

How the data were processed

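Values are FPKM as the authors deposited them, in 1 table with 24169 genes. Per the submitters' processing notes, bcl2fastq, HISAT2 and the GRCm38 genome were used; for versions, counting program, annotation and strand setting the sources used here give nothing. Per the labels' protocols, libraries came from a directional kit after ribosomal RNA depletion. Columns were matched to samples by title, and replicate numbers (1 and 2, in accession order) pair nothing.

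Reads were recovered from FPKM: among 6059 single-exon genes, the product of FPKM and length moved in equal steps within a library, which gives its depth, and at least 99.95% of values under 1000 reads were whole within 0.05. Over all genes, which limma-voom and the marker reads draw on, 93.8% to 94.0% of such values were whole. Poisson intervals (95%) and the floor of 3 reads cover counting error only.

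Values were tested as log2(FPKM + 1), which understates the change of low genes, for 12403 genes that reached 1 FPKM in 2 or more libraries. The test was limma 3.58.1 (R 4.3.3; a linear model with moderated variances that follow a mean trend, two-sided), MBP minus untreated, Benjamini-Hochberg over all genes, threshold 0.05. The script was tested on simulated data, where false calls exceeded the nominal share. Group means of FPKM are given with SD. There were 16 alternatives. Members and lists were chosen with earlier results of these data known. Named genes were all members, up to 4 per list with the lowest p, neighbours within 10 kb, the 5 profiles nearest to Rmrp with a mean of at least 5 FPKM, and the defining markers of the cell type; other list genes were named after their values were seen. GENCODE M21 gave lengths, GC content and RNA sequences, and RefSeq (GRCm38.p6) the upstream stretches. Identity used Biopython's global aligner (match 1, mismatch -1, gap opening -2, extension -0.5).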

Additional observations from a re-analysis of the deposited data

How the results depend on the processing

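Under the 16 alternatives, 0 members other than Rmrp and 0 partner genes passed limma's test, and all genes past the threshold stayed at 0 in 15. With limma-voom on recovered reads they came to 16. The log2 fold change of Rmrp ranged from -0.54 (without the first untreated library) to -0.32 (with the GC content and length correction). Its negative sign throughout is no support, as Rmrp was picked for its values. With groups that do not overlap, leaving out a library cannot turn the sign. That of Rpph1 was negative in 15 alternatives, from -0.35 (without the first MBP library) to -0.11 (GC content and length correction). With quantile normalization it was 0 by construction, as Rpph1 is the top row of each library. The sign of Rn7sk turned without the first MBP library and without the second untreated library, within a range of -0.37 to 0.37 over libraries left out; the cause was not tested. With a library left out, counts of called genes ranged from 0 to 0. Of the 8 partner list medians, 3 lay so near 0 that their sign turned with the scaling: in TPM the mitochondrial list stood at 0.01, RNA polymerase III subunits at 0.01 and Y RNA binding proteins at 0.0040, and with quantile normalization at 0.00017, 0.00071 and 0.02 in the same order. The other 5 kept their sign in TPM, with median-of-ratios scaling and with quantile normalization. Depth is no limit for Rpph1, Rmrp and Rn7sk, but leaves Rny1, Rny3 and Vaultrc5 at 6, 1 and 1 reads over all libraries.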
